A study of Mus musculus with 6 samples.

Results

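The H2 genes are the major histocompatibility complex (MHC) genes of the mouse, and their DNA methylation was examined in cultured spermatogonia. They were taken as all CpG sites whose closest gene has a name starting with H2-, at any distance from its transcription start site (start site). This gave 1315 of 2268080 sites and 36 of 31751 genes. Of these, 456 sites at 26 genes had at least 10 reads in all 6 samples (commonly covered sites), of 681804 such sites in all. A minimum of 5 reads gave 630 H2 sites. Genes were sorted by symbol into classical class I (H2-K and H2-D, 88 commonly covered sites at 3 genes), class II (H2-A, H2-E, H2-O, and H2-DM, 126 sites at 6 genes), and non-classical class I genes (H2-Q, H2-T, H2-M, and H2-Bl, 242 sites at 17 genes).

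In reduced representation bisulfite sequencing (RRBS), CpG-rich fragments are read after bisulfite has converted the unmethylated cytosines, so that the DNA methylation level of a site is the percent of its reads that are methylated. Germline stem (GS) cells are spermatogonia cultured with growth factors on feeder fibroblasts, and include spermatogonial stem cells. All 6 samples carry the genotype DBA/Tg14(act-EGFP-OsbY01), an EGFP transgene in a DBA background. Space GS cells (3 replicates) were kept frozen for 6 months on the International Space Station and Ground GS cells (3 replicates) for 6 months in a freezer on Earth, and both were analyzed after thawing, culture, and passage. Values of replicates are given in the order of their numbers. The study describes the replicates as experiments, but the labels do not state that they came from separate cultures, so p values measure only the spread between these samples, which may be partly technical. The comparison asked whether storage in space left a change in DNA methylation.

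Classical class I proteins present peptides from inside the cell on nearly all somatic cells, bound to the light chain beta-2 microglobulin. Class II proteins present peptides taken up from outside, mainly on dedicated antigen-presenting cells. Non-classical class I proteins have narrower roles, as ligands of natural killer cells and of other T cells or in single tissues such as the vomeronasal organ. Germ cells are known for low levels of MHC proteins on their surface. CpG-rich start sites are usually unmethylated whether or not a gene is active, so a level says nothing by itself about expression, which was not analysed here.

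H2 sites were covered about as deeply as other sites. The median coverage of commonly covered H2 sites was 31 to 34 reads per sample, with a range of 10 to 97 reads. Within 1 kb of a start site, 45.3% of the H2 sites were commonly covered, compared with 53.0% of all sites, and over 1 kb away the shares were 22.4% and 19.0%. The reads summed over all sites of the table ranged from 28535973 to 33743845 per sample. The 456 sites formed 58 clusters with gaps of up to 100 bp, and 185 runs of neighbouring sites with the same coverage in every sample, so neighbouring sites often lay on the same reads and were not independent. Of 8 germline genes whose start sites are known to be methylated in fibroblasts, 6 (Dazl, Ddx4, Mael, Sycp3, Tdrd1, and Taf7l) had at least 3 commonly covered sites within 1 kb. Their mean level was 0.826% to 3.62% per sample, low in all 6 samples, and the part of feeder fibroblasts in the H2 levels was not tested. MHC genes differ between strains and resemble each other in sequence, and reads were aligned to the reference strain. The part of base differences between strains and of reads shared by similar genes in these levels was not tested.

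The sequence around the H2 start sites differed in CpG content. Promoters of 28 of the 36 genes were found by symbol in RefSeq (GRCm38.p6, 250 bases before to 50 after the start), and their build differs from that of the table (mm39), so they show the kind of sequence and were not aligned with the measured sites. The median number of CpG sites in this window was 7 over all 32851 promoters. It was 15 in classical class I (3 promoters, 14 to 19), 3 in class II (8 promoters, 0 to 29), and 2.5 in non-classical genes (20 promoters, 0 to 19). The 250 bases before the start are shown for 6 genes with CpG in capitals, for the classical genes H2-K1 and H2-D1, for the CpG-rich H2-Q10 and the CpG-rich one of the 2 RefSeq promoters of H2-DMa (29 CpG sites, with 0 in the other), and for H2-DMb2 and H2-M10.2, which had few CpG sites there. The commonly covered sites of H2-DMb2, 12 and 4 bp before the start that the table gives, were at an intermediate level. The bases shown hold no CpG at these positions. By the spacing to H2-DMb1, the table and RefSeq starts of H2-DMb2 lie over 1 kb apart, so these sites are not in the bases shown. The commonly covered sites of H2-M10.2 within 1 kb were highly methylated but lay 934 and 937 bp after its start, also outside the bases shown. In GRCm38.p6 the sequences shown lie at chr17:34000334-34000583 (minus strand), chr17:35262844-35263093 (plus), chr17:35469839-35470088 (plus), chr17:34122582-34122831 (plus), chr17:34144999-34145248 (plus), and chr17:36286422-36286671 (minus).
H2-K1: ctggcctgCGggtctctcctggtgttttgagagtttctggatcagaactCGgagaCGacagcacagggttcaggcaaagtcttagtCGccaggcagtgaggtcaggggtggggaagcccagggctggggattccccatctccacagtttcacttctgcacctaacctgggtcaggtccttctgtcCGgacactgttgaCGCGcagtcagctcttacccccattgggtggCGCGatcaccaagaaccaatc
H2-D1: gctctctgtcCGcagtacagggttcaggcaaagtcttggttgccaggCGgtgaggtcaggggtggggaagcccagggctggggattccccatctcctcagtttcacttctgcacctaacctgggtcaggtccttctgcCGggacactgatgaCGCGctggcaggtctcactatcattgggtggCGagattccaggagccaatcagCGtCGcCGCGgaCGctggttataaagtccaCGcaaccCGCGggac
H2-Q10: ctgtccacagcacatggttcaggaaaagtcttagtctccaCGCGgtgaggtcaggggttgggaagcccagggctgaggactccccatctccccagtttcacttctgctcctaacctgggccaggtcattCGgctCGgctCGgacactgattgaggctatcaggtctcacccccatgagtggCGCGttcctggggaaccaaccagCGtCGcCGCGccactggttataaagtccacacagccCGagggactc
H2-DMa: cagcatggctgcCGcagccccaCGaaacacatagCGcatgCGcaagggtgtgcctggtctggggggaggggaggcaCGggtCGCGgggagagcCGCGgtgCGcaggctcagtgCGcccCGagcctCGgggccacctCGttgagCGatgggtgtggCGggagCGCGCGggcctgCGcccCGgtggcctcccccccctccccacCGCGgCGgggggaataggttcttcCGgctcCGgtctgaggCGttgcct
H2-DMb2: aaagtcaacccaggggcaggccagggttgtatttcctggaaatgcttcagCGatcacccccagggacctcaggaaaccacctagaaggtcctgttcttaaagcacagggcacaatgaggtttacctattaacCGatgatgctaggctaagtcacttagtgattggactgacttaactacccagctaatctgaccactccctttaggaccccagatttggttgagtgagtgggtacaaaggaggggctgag
H2-M10.2: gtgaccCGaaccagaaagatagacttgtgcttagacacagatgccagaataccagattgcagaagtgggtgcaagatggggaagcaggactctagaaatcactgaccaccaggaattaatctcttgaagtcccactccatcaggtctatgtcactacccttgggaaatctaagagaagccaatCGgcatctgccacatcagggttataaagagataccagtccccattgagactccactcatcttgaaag

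The longest run of bases shared by the H2-K1 and H2-D1 sequences was 47 bases, and H2-Q10 shared runs of 16 and 17 bases with them. H2-DMa, H2-DMb2, and H2-M10.2 shared no run of more than 10 bases with any other of the 6. The letters CCAAT, searched on both strands, occurred in 3 of 3 classical, 7 of 8 class II, and 17 of 20 non-classical promoters, compared with 37.41% of all promoters. The letters TGACG, which hold a CpG, occurred in 3 of 3, 1 of 8, and 8 of 20 promoters, compared with 20.81%. The letters GAAANNGAA occurred in 0 of 3, 0 of 8, and 2 of 20 promoters, compared with 8.56%. CCAAT and TGACG resemble parts of the Y box and X2 box, which are known elements of MHC promoters, and GAAANNGAA resembles part of an interferon response element. A match is not a bound site.

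CpG content of the promoter went with coverage within 1 kb of the start, whereas its relation to the level rested on few sites. Of the 320 commonly covered H2 sites within 1 kb, 22 lay from 250 bases before to 50 after the start, and 275 lay at or after it. Taking the promoter with most CpG sites of each gene, all 8 H2 genes with more CpG sites than the median of 7 had commonly covered sites within 1 kb (222 sites), and their mean levels were 1.42% to 4.37%. Of the 20 genes at or under the median, 5 had such sites (30 sites). H2-T23 (0.976%, 14 sites) and H2-M5 (1.51%, 10 sites) were unmethylated. With only 2 sites each, H2-T3 was at 10.97%, H2-DMb2 at 52.8%, and H2-M10.2 at 91.9%. For the other 15 genes with a CpG-poor promoter, the level near the start could not be read at this coverage. Distances here are from the starts that the table gives. By the spacing to neighbouring H2 genes, the table and RefSeq starts of H2-DMa (62 sites) and of H2-DMb2 lie over 1 kb apart. For both genes the measured sites are therefore not those of the promoter counted, and the relation is not shown.

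Near the start sites that the table gives, most commonly covered H2 sites of each class were almost free of DNA methylation in Space and Ground GS cells. This does not hold for each gene, and many H2 genes had no such site. Within 1 kb, 313 of 320 H2 sites (97.81%) had a mean level under 10%, compared with 98.68% of all sites. The mean level was 3.03% ± 0.517 (SD, n = 6), with 2.46% ± 0.227 over all sites at this distance. Of the 7 other sites, 5 were at 10% to 80% and 2 were over 80%. Over 1 kb away, 79 of 136 sites (58.09%) were under 10% and 45 (33.09%) over 80%, compared with 48.78% and 38.86% of all sites.

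In classical class I genes, the mean level over 81 sites within 1 kb was 1.60%, 1.38%, and 1.56% in Space replicates, and 1.48%, 2.56%, and 1.58% in Ground replicates. In class II genes (64 sites) it was 4.0%, 4.85%, and 2.52% in Space replicates and 2.95%, 3.12%, and 4.0% in Ground replicates. In non-classical genes (175 sites) it was 3.99%, 4.05%, and 2.27% in Space replicates and 4.11%, 2.62%, and 3.64% in Ground replicates. The replicates of both groups overlapped in each class, and the Space minus Ground differences of −0.364, 0.434, and −0.0175 percentage points were smaller than the spread between replicates. The class II level rested on its 2 genes and on the starts that the table gives. By the spacing to neighbouring H2 genes, none of the 64 sites lies within 1 kb of a RefSeq start of its gene. The builds differ, so this placing is approximate. The 62 sites of H2-DMa were low, whereas the 2 sites of H2-DMb2 were intermediate, and the mean was 27.4% when both genes had equal weight. The non-classical mean was 11.2% with equal weight per gene, where the 2 sites each of H2-M10.2 and H2-T3 count as much as those of the other 9 genes. The plot of class levels shows these means beside those of all sites.

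**Figure D1:**
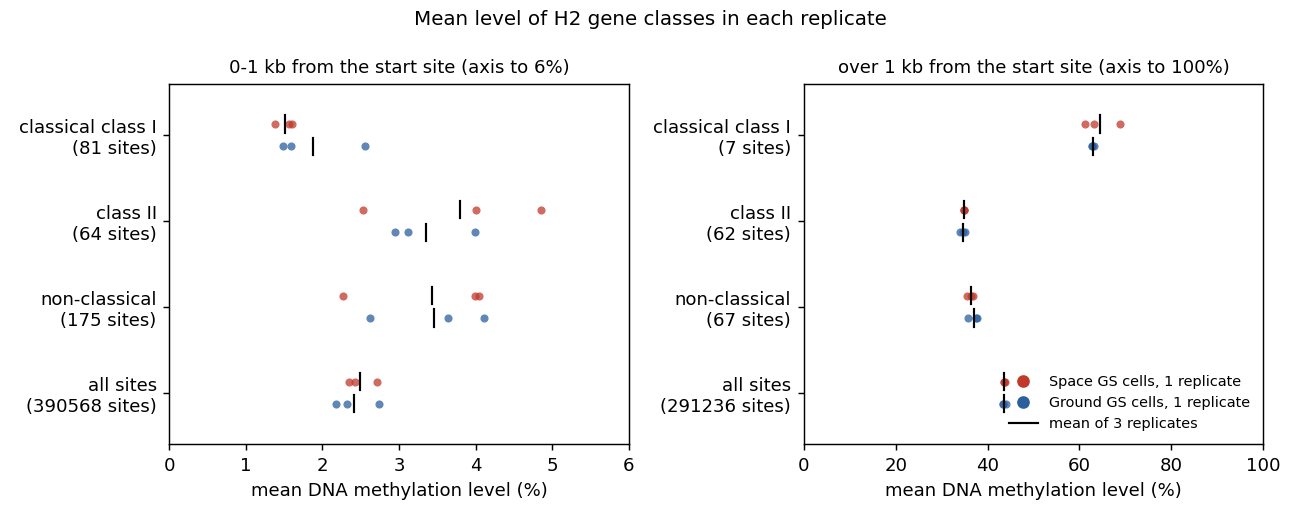
Mean DNA methylation level (horizontal axis, percent) of each H2 class and of all commonly covered sites in each replicate of Space (red) and Ground (blue) GS cells, within 1 kb (left, axis to 6%) and over 1 kb (right, axis to 100%) of the start site, with the group mean as a black line. Space and Ground replicates overlap in each H2 class at both distances, and all classes are under 5% within 1 kb.

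Over 1 kb away, the mean level of classical class I genes was 64.5% ± 3.96 in Space replicates and 62.9% ± 0.278 in Ground replicates (SD, n = 3), from 7 sites that all belong to H2-D1. Class II genes (62 sites) were at 34.9% ± 0.0359 and 34.6% ± 0.602, and non-classical genes (67 sites) at 36.3% ± 0.650 and 37.0% ± 1.08. All sites at this distance had 43.7% ± 0.180 and 43.5% ± 0.350. These class means are mixtures of low and high clusters and depend on how many sites each gene gives, as they were 68.7% in class II and 63.7% in non-classical genes with equal weight per gene.

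By the start sites that the table gives, the level changed steeply with distance. Within 250 bp of a start site, 67 of 69 H2 sites were under 10%, and at 500 to 1000 bp 140 of 144 sites were. At 1 to 5 kb, 21 of 26 H2 sites at 8 genes were over 80% and the mean level was 82.4%, whereas all sites at this distance had a mean of 20.7% and 75.81% of them were under 10%. Of these 26 sites, 9 belong to H2-DMb2, 5 to H2-D1, 4 to H2-Ob, and 3 to H2-Q4, so that few genes decide the value. Beyond 5 kb most H2 sites were low again, with 38 of 50 sites under 10% at 5 to 10 kb, 24 of 40 at 10 to 20 kb, and 15 of 20 farther away. Of all sites, 52.48%, 41.3%, and 31.78% were under 10% at these distances. All 38 low H2 sites at 5 to 10 kb lie in 2 clusters of H2-Ab1, described below. By the RefSeq spacing of H2-Ab1 from H2-Ob, these clusters would count at 1 to 5 kb, where most H2 sites would then be low. In the plot by position, the low sites beyond 1 kb stand in a few columns, each of which is 1 dense cluster.

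**Figure D2:**
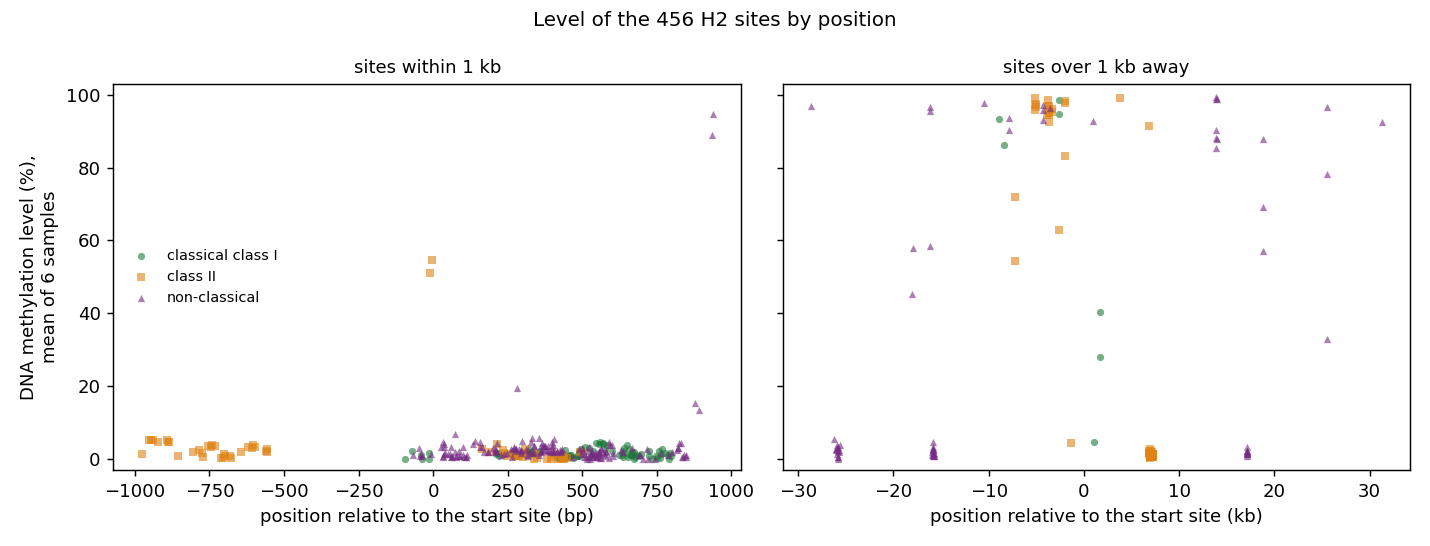
Mean DNA methylation level over 6 samples (vertical axis, percent) of the 456 commonly covered H2 sites against their position relative to the start site of their gene, in bp for sites within 1 kb (left) and in kb for other sites (right), with a symbol and color for each class. Most sites within 1 kb lie under 10%, and farther away the sites fall into low columns and high groups, with few between.

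Among classical class I genes, H2-K1 and H2-D1 encode the heavy chains that present peptides to CD8 T cells, and both start regions were unmethylated. H2-K1 had 25 sites within 1 kb, at chr17:34218623-34219108 (mm39, 212 to 697 bp after the start). Its level, as the percent of methylated reads over these sites, was 0.966%, 0.585%, and 2.73% in Space replicates and 1.23%, 1.67%, and 1.09% in Ground replicates. The 36 sites of H2-D1 within 1 kb had 2.79%, 1.32%, and 1.04% in Space replicates and 1.93%, 2.07%, and 2.10% in Ground replicates. In both genes the Space replicates spread more widely than the Ground replicates and included them. H2-K2, a transcribed pseudogene in RefSeq, had 20 sites within 1 kb and a mean level of 2.06% (0.668% to 4.10%).

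Across H2-D1, the level went from high to low and back to intermediate. At 4 sites 2586 to 8959 bp before the start, the mean levels were 86.3% to 98.4%, within 1 kb the gene mean was 1.79%, and 1 site 1052 bp after the start had 4.63%. At 1688 and 1698 bp after the start (chr17:35483393 and chr17:35483403, mm39) the levels were 40.3% and 28.1%. The first of these had 64.5%, 35.0%, and 38.8% in Space replicates and 32.1%, 36.1%, and 35.0% in Ground replicates. Replicate 1 of the Space GS cells stood above the other 5 samples, which overlapped. The difference was 11.7 percentage points (quasi-binomial test, adjusted p = 0.955).

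Among class II genes, H2-DMa, H2-DMb1, and H2-DMb2 encode chains of the DM protein, which exchanges peptides on class II proteins. H2-DMa had 62 sites within 1 kb of the start that the table gives, in 2 clusters. The cluster before the start (chr17:34337537-34337958, 31 sites) had 3.33%, 4.77%, and 1.11% in Space replicates and 2.00%, 2.59%, and 3.04% in Ground replicates. The cluster after it (chr17:34338679-34339016, 31 sites) had 1.16%, 0.593%, and 1.59% in Space replicates and 1.38%, 1.18%, and 1.86% in Ground replicates. Both were low in all samples. By the spacing to H2-Oa, the 2 RefSeq starts of H2-DMa lie over 1 kb after both clusters, which is approximate as the builds differ. A single site 2612 bp before the start, where the level was 63.0%, lay outside these clusters.

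The start that the table gives for H2-DMb2 was at an intermediate level. The 2 sites 12 and 4 bp before this start (chr17:34362268-34362276) had mean levels of 51.0% and 54.7%. By the spacing to H2-DMb1, the RefSeq start of H2-DMb2 lies over 1 kb after these 2 sites. No commonly covered H2 site lay within 1 kb of that RefSeq start, so the level there was not measured. The first of the 2 sites had 60.9%, 64.7%, and 41.2% in Space replicates and 59.1%, 45.5%, and 34.5% in Ground replicates, and the groups overlapped. Both sites had the same coverage in each sample (11 to 29 reads). The 14 sites 3379 to 5159 bp before the table's start had a mean of 96.1% and 94.97%, 96.95%, and 97.98% in Space replicates, with 95.31%, 93.56%, and 97.94% in Ground replicates, the highest level over 1 kb away of an H2 gene with at least 3 sites. H2-DMb1 had 1 commonly covered site, at 91.4%.

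H2-Oa and H2-Ob encode the chains of the DO protein, an inhibitor of DM. H2-Ob had 4 sites over 1 kb away with 93.8% over 6 samples (89.0% to 96.8%). H2-Oa had 2 sites 7204 and 7240 bp before its start, with 54.4% and 71.9%. The classical class II genes H2-Ab1 and H2-Aa encode the beta and alpha chain of the I-A protein. H2-Aa had only 1 site in the table, which did not reach 5 reads in all samples, and H2-Eb1 was not analysed here.

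H2-Ab1 had no commonly covered site within 1 kb of the start site that the table gives, but 40 sites over 1 kb away, of which 38 lay in 2 low clusters after the start. The cluster at chr17:34483537-34483701 (19 sites, 6875 to 7039 bp after the start) had 1.99%, 0.585%, and 0.368% in Space replicates and 3.14%, 0.886%, and 0.815% in Ground replicates. The cluster at chr17:34483832-34483970 (19 sites) had 2.97%, 0.489%, and 0.351% in Space replicates and 0.605%, 1.75%, and 0.368% in Ground replicates. Both clusters were unmethylated in all 6 samples. A site 3824 bp before the start had 94.4%. The table's start of H2-Ab1 lies 18786 bp from that of H2-Ob, and in RefSeq (GRCm38.p6) these starts are 24322 bp apart. The low clusters lie 25661 to 26094 bp from the H2-Ob start of the table. Which start of H2-Ab1 is used in these cells is not given by the table. By these spacings, the clusters lie over 1 kb from either start, but within 5 kb of the RefSeq start. The builds differ, so this placing is approximate.

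**Figure D3:**
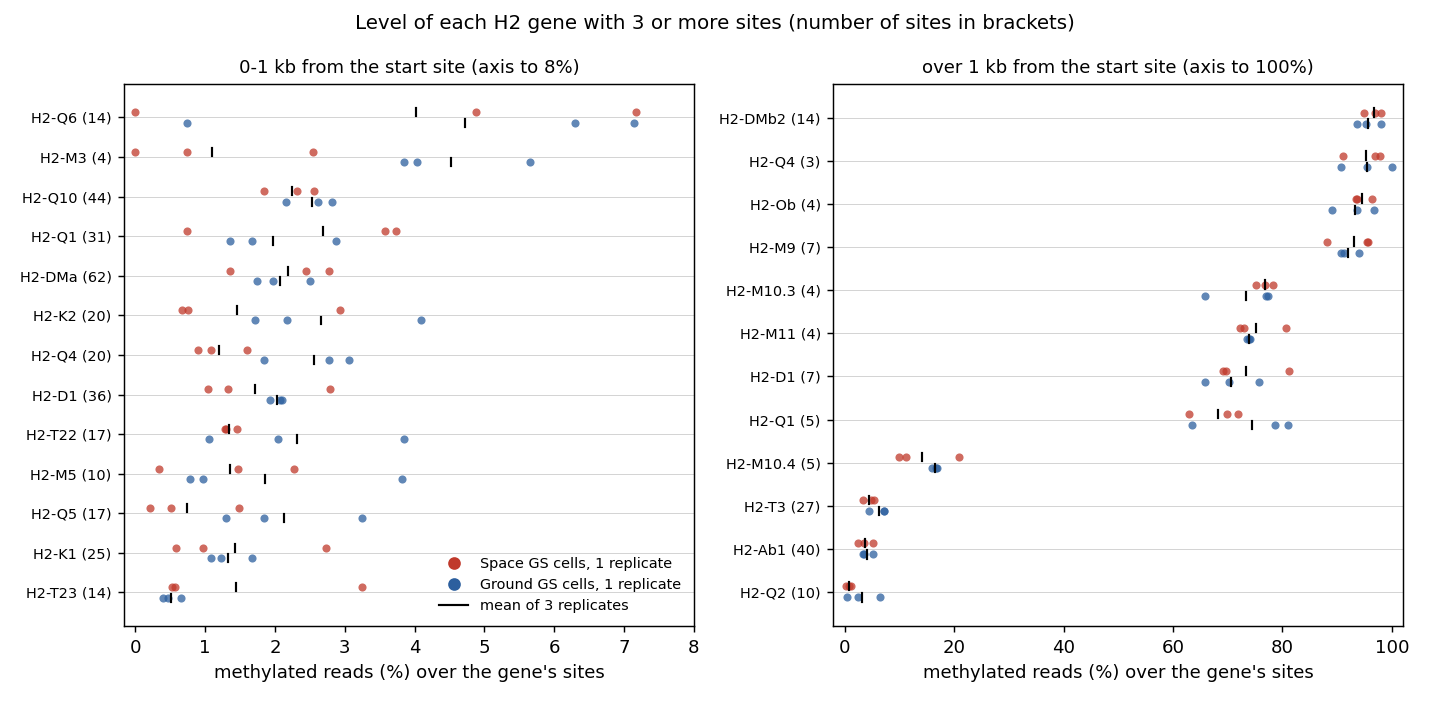
Percent of methylated reads (horizontal axis) over the commonly covered sites of each H2 gene with at least 3 such sites, within 1 kb (left, axis to 8%) and over 1 kb (right, axis to 100%) of the start site, for each replicate of Space (red) and Ground (blue) GS cells, with the group mean as a black line. All 13 genes within 1 kb are under 8% in every sample, whereas the 12 genes over 1 kb away range from 1.94% (H2-Q2) to 96.1% (H2-DMb2).

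Among non-classical genes, all 7 H2-Q and H2-T genes with at least 3 sites within 1 kb were at a low level there, whereas the 2 sites of H2-T3 were at 10.97%. H2-Q10, which encodes a class I protein secreted by the liver, had 44 sites at chr17:35781011-35781622 with 2.56%, 1.85%, and 2.32% in Space replicates and 2.61%, 2.81%, and 2.16% in Ground replicates. H2-Q6 had the highest level of the 13 genes with at least 3 sites within 1 kb. Its 14 sites had 4.89%, 7.18%, and 0% in Space replicates and 7.14%, 0.735%, and 6.30% in Ground replicates, so that samples of both groups were at both ends, with 140 to 307 reads per sample. H2-Q1 (31 sites) had 2.33%.

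The lowest level of the 13 genes was at H2-T23, which encodes Qa-1, a ligand of natural killer cell receptors. Its 14 sites had 3.25%, 0.524%, and 0.571% in Space replicates and 0.649%, 0.397%, and 0.466% in Ground replicates. Replicate 1 of the Space GS cells stood above the other 5 samples. The gene was not tested because its pooled level was under 1%. H2-T22, whose protein is recognized by gamma delta T cells, had 17 sites at 1.83% (1.06% to 3.85%), of which 2 were at 13.6% and 15.3%. Among the H2-M genes, H2-M3, which presents formylated peptides, had 4 sites at 2.80%, and H2-M5 had 10 sites at 1.61%.

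The H2-M10 genes, H2-M9, and H2-M11 are known from vomeronasal neurons. Few of their sites near a start were commonly covered. H2-M10.2 had 2 sites 934 and 937 bp after the start, with mean levels of 89.0% and 94.7%, the only H2 sites within 1 kb over 80%. The H2-M9 cluster 13863 to 13965 bp after its start (7 sites) had 92.5% (88.2% to 95.7%). At H2-M11 and H2-M10.3, neighbouring sites with the same coverage had different levels. The 3 sites of H2-M11 at chr17:36883458-36883502 had 33.0%, 78.1%, and 96.7%, and their ranges over the 6 samples did not overlap. The 3 sites of H2-M10.3 at chr17:36660455-36660490 had 57.0%, 69.2%, and 87.7%.

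Low clusters of at least 3 sites far from start sites were found in 4 genes. Of 34 clusters over 1 kb away, 9 were under 10%, 19 over 80%, and 6 between. The 6 low clusters with at least 3 sites held 76 of the 79 sites under 10% in this distance class. Beside the pair at H2-Ab1, 1 lay at H2-Q2, 17094 to 17155 bp after its start (chr17:35578311-35578372, 10 sites). It had 1.18%, 0.295%, and 0.800% in Space replicates and 2.50%, 0.392%, and 6.49% in Ground replicates, the lowest level over 1 kb away of an H2 gene with at least 3 sites. H2-T3, which encodes the thymus leukemia antigen, had 2 such clusters before its start, at chr17:36516937-36517166 (14 sites, 2.29%) and chr17:36526804-36527082 (11 sites, 2.41%). H2-M10.4 had 1 at chr17:36799182-36799230 (3 sites, 2.34%). These clusters were as low as the start regions of H2 genes. The table names these H2 genes as those with the closest start site.

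High clusters belonged to genes of all 3 classes. Beside H2-D1, H2-DMb2, and H2-Ob, H2-Q4 had 3 sites 4275 to 4336 bp before its start with 91.0%, 96.8%, and 97.8% in Space replicates and 90.7%, 100%, and 95.5% in Ground replicates. H2-Q4 itself was at 1.88% within 1 kb. Only 17 of 456 sites (3.728%) were at 10% to 80%, compared with 5.704% of all sites. They belonged to H2-D1, H2-DMa, H2-DMb2, H2-Oa, H2-Q1, H2-T22, H2-T3, H2-M10.3, and H2-M11, and the plot of intermediate sites shows them.

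**Figure D4:**
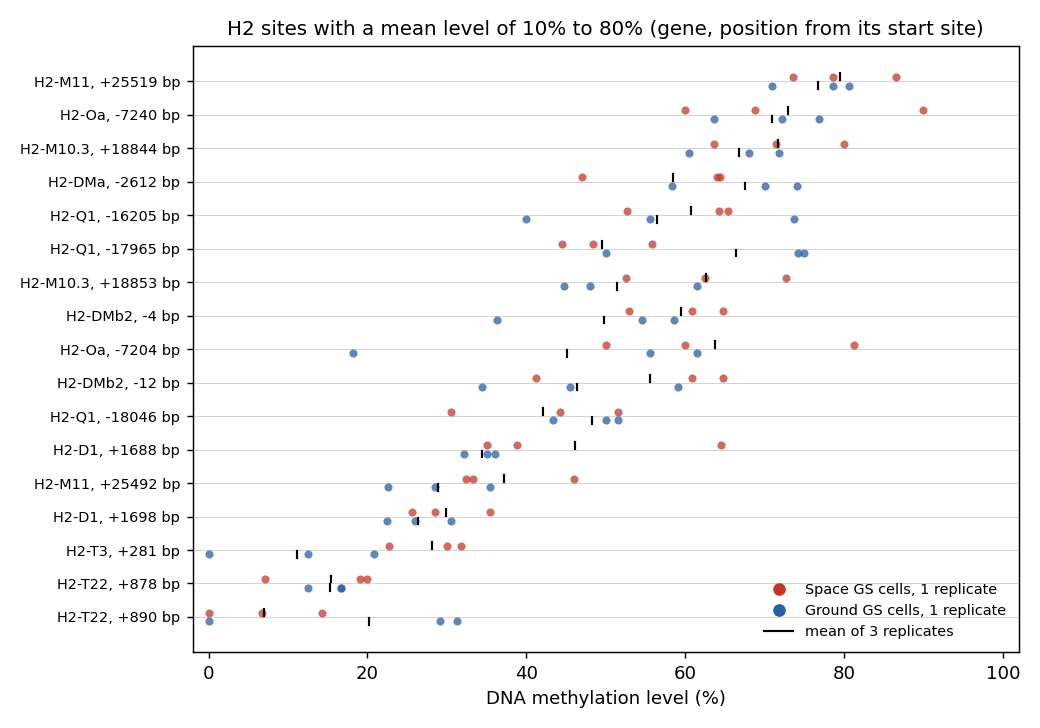
DNA methylation level (horizontal axis, percent) of the 17 H2 sites with a mean level of 10% to 80% in each replicate of Space (red) and Ground (blue) GS cells, with the group mean as a black line, labelled by gene and position from its start site. Space and Ground replicates overlap at each site except the H2-T3 site 281 bp after the start, where the Space replicates are at 22.7% to 31.8% and the Ground replicates at 0% to 20.8%.

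The spread between samples depended on the level. The median SD over the 6 samples was 2.05 percentage points at H2 sites under 10%, 10.5 at sites of 10% to 80%, and 4.01 at sites over 80%. Over all sites these values were 2.07, 9.60, and 3.71. H2 sites varied between samples to a similar degree as other sites of the same level.

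In the comparison of Space and Ground GS cells, 0 of 49 H2 sites and 0 of 24 H2 gene values passed the threshold. For a gene value, reads were summed over at least 3 sites per gene and distance class, and both were tested with a quasi-binomial test over the whole table with adjusted p values (Benjamini-Hochberg) and a threshold of 0.05. In the whole table, 0.0% of 30526 gene values and 0.0% of 92042 sites passed it. At an unadjusted p under 0.05, there were 0 of 24 H2 gene values, compared with 5.35% of all, and 1 of 49 H2 sites, compared with 5.61%. The smallest adjusted p was 0.921 for an H2 gene and 0.890 for an H2 site. The quasi-likelihood test of edgeR gave 0 calls among H2 sites and gene values, and 0 in the whole table. It put 1 H2 site and 2 H2 gene values at an unadjusted p under 0.05. Its share over all sites and gene values at that p is not given here, so these counts have no background. Of the 24 gene values, 9 were higher and 15 lower in Space GS cells.

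The smallest p values within 1 kb belonged to H2-Q4, H2-M3, and H2-Q5, all lower in Space GS cells. H2-Q4 had 0.901%, 1.60%, and 1.09% in Space replicates and 3.07%, 1.85%, and 2.78% in Ground replicates, a difference of −1.37 percentage points (adjusted p = 0.921). H2-M3 had 2.54%, 0.735%, and 0% in Space replicates and 4.04%, 3.85%, and 5.66% in Ground replicates, a difference of −3.42 (adjusted p = 0.921). In these 2 of 24 gene values the replicates did not overlap, compared with 9.65% of all gene values. H2-Q5, a transcribed pseudogene in RefSeq, had 1.49%, 0.505%, and 0.205% in Space replicates and 1.84%, 1.30%, and 3.25% in Ground replicates, and these overlapped (difference −1.40, adjusted p = 0.921). All 3 stayed under 6% in each sample.

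Over 1 kb away, the smallest p values belonged to H2-Q2, H2-T3, and H2-Q1. At H2-Q2 the difference was −2.37 percentage points (adjusted p = 0.937), with replicate 3 of the Ground GS cells at 6.49% and the other 5 samples at 0.295% to 2.50%. H2-T3 (27 sites) had 4.90%, 3.38%, and 5.35% in Space replicates and 7.17%, 4.43%, and 7.24% in Ground replicates, a difference of −1.73 (adjusted p = 0.941). H2-Q1 (5 sites) had 71.9%, 62.9%, and 69.8% in Space replicates and 78.7%, 63.4%, and 81.1% in Ground replicates, a difference of −6.16 (adjusted p = 0.957). The groups overlapped in all 3 genes.

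No H2 site differed by more than 20 percentage points between Space and Ground GS cells, compared with 0.196% of all commonly covered sites. Of 456 H2 sites, 420 (92.11%) were within 5 percentage points and 6 differed by more than 10. The median absolute difference of the 49 tested H2 sites was 4.18 percentage points, with 4.25 over all tested sites. The other 407 H2 sites were not tested, as 381 had a mean level under 5% and 26 over 95%, and 18 sites had no methylated read in any sample.

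**Figure D5:**
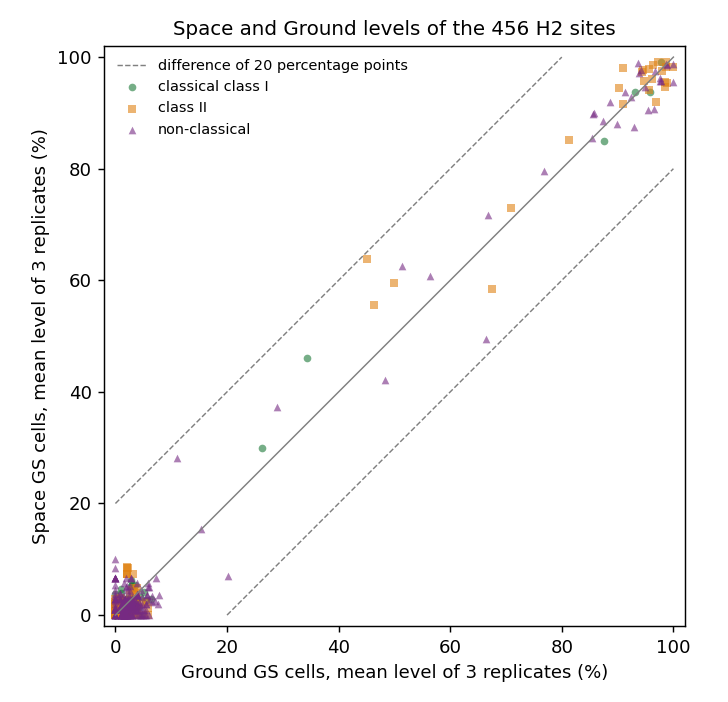
Mean DNA methylation level of 3 replicates in Space GS cells (vertical axis, percent) against that in Ground GS cells (horizontal axis, percent) for the 456 commonly covered H2 sites, with a symbol and color for each class, a solid line at equal levels, and dashed lines at a difference of 20 percentage points. All sites lie between the dashed lines, and the one nearest to them is the H2-Oa site with a difference of 18.7 percentage points.

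The 5 tested sites with the largest differences lay in 5 genes, and none passed the threshold. At H2-Oa, 7204 bp before the start (chr17:34304109), the levels were 50%, 60.0%, and 81.3% in Space replicates and 55.6%, 18.2%, and 61.5% in Ground replicates, with 10 to 20 reads per sample. The difference of 18.7 percentage points (adjusted p = 0.955) rested on 1 high and 1 low sample. At H2-T3, 281 bp after the start (chr17:36500897), they were 31.8%, 30%, and 22.7% in Space replicates and 20.8%, 0%, and 12.5% in Ground replicates. The replicates did not overlap there (difference 17.1, adjusted p = 0.895), with 16 to 24 reads per sample.

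At H2-Q1, 17965 bp before the start (chr17:35521415), the levels were 55.8%, 44.4%, and 48.4% in Space replicates and 74.2%, 50%, and 75% in Ground replicates. The groups overlapped (difference −16.9, adjusted p = 0.911). At H2-T22, 890 bp after the start (chr17:36352748), they were 0%, 14.3%, and 6.67% in Space replicates and 29.2%, 31.3%, and 0% in Ground replicates. This site had the smallest p of the H2 sites (difference −13.1, adjusted p = 0.890), although 1 Ground replicate had no methylated read. The H2-D1 site described above was the fifth. The other sites among the 3 smallest p values were the H2-T3 site and 1 at H2-Q10, 141 bp after the start, with 10%, 20%, and 0% in Space replicates and 0% in all Ground replicates (adjusted p = 0.895, 10 to 19 reads).

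The replicates did not overlap at 2 of 49 tested H2 sites, 1 higher and 1 lower in Space GS cells, compared with 9.07% of all tested sites. The lower one lay 7817 bp before the start of H2-T3, with 88.9%, 93.3%, and 90.0% in Space replicates and 93.8%, 100%, and 95.7% in Ground replicates. At 10 to 97 reads, a difference of a few percentage points at a single site was not detectable.

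With a minimum of 5 reads, H2-Eb2 and H2-M10.6 entered, and 28 genes had a site. The added sites within 1 kb of the table's starts of H2-D1 (33 sites, 1.54%), H2-DMa (28 sites, 2.94%), H2-Q5 (16 sites, 2.27%), H2-M5 (15 sites, 2.92%), and H2-M3 (10 sites, 1.13%) were as low as those with more reads. In contrast, those of H2-Q10 (6 sites, 30.3%), H2-Eb2 (3 sites, 64.8%), H2-M10.2 (3 sites, 96.8%), and H2-M10.3 (2 sites, 92.6%) were not. These sites raised the class means within 1 kb to 5.32% in class II and 6.19% in non-classical genes, while classical genes were at 1.61%. A difference over 20 percentage points was seen at 3 of 630 sites (0.476%), compared with 0.754% of all sites at this minimum. They were all lower in Space GS cells, at H2-Q10 (−21.7), H2-M11 (−22.3), and H2-M10.5 (−25.8). Their lowest coverage was 5, 5, and 7 reads.

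The genes that load or regulate MHC proteins were also compared. Of 12 genes for class I loading, 6 had at least 3 commonly covered sites within 1 kb, with a median level of 2.23%. B2m, the gene of beta-2 microglobulin, had 0.627%, 0.508%, and 0.479% in Space replicates and 13.4%, 0.727%, and 0.909% in Ground replicates (adjusted p = 0.921). Replicate 1 of the Ground GS cells stood apart, and the mean of 2.78% over the 6 samples was 0.650% without it. Psmb8, an immunoproteasome subunit, was the highest at 10.9%. Of 12 regulators, 8 had such sites at 1.43% to 2.76%, among them Nlrc5, the activator of class I genes (2.46%), and Irf1, which acts in interferon signaling (2.39%). The median over all 14373 genes with at least 3 sites within 1 kb was 1.82%.

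Of the class II machinery, only sites over 1 kb away were covered, with 98.7% at Cd74, the invariant chain, 93.5% at Ctss, a protease that cleaves it, and 56.5% at Ifi30. Ciita, the master activator of class II genes, had 8 sites over 1 kb away at 94.9%. Among class I-like genes outside the H2 group, Fcgrt, the neonatal Fc receptor, had 6 sites within 1 kb at 92.5%, and 3 others had 28.4% to 91.5% over 1 kb away. At this distance, 2 loading genes had 1.52% (Psmb10) and 98.1% (Psmb8), and 6 regulators had 0.990% to 94.9%, with a median of 66.1% over all 17207 genes. In these lists, 0 genes passed an adjusted or unadjusted p of 0.05 in either direction, with the same background of 0.0% and 5.35%.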

How the data were processed

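DNA methylation was measured by RRBS (Zymo-Seq RRBS Library Kit) in 3 Space and 3 Ground samples. The table deposited by the authors lists, per CpG site, a count of reads and the percent that were methylated in each sample, with the closest start site and gene. The submitters' processing notes name mm39, Bismark 0.24.2, Trim Galore, and methylKit, without roles. Removal of duplicated reads is not given in the sources used here, so reads may include copies of 1 molecule.

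Methylated reads equal the count times the percent (within 0.000266 of a whole read). Sites needed 10 reads in all 6 samples, and sites with a mean level of 5% to 95% were tested. Reads were also summed per gene and distance class (0 to 1 kb, over 1 kb) over at least 3 sites, and tested at a pooled level of 1% to 99%. The quasi-binomial test moderated the dispersion between replicates over all sites or genes of the table (squeezeVar, limma 3.58.1, R 4.3.3), and p values were adjusted by the Benjamini-Hochberg method. It was tested on simulated data in which only sites and gene values at intermediate levels were changed. This does not cover changes at the low levels of most H2 sites. Errors are SDs over replicates, and they and the read numbers limit the precision, with a median of 31 to 34 reads per H2 site. Alternatives were 5 or 20 reads, edgeR 4.0.16 on methylated and unmethylated counts, Fisher's exact test on pooled reads, a replicate block, a 2 kb limit, other weighting, and leaving out each replicate. Tables were made with pandas 2.3.3 and figures with matplotlib 3.10.9.

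The members, classes, gene lists, and tests were chosen with earlier results of these data known. Gene classes follow the symbols. All H2 genes with at least 3 commonly covered sites in a distance class are described, with full values for the 3 smallest p values and the 3 highest and 3 lowest levels per distance class and for classical genes. Single sites named are the 5 largest differences and the 3 smallest p values among those tested. The other sites and clusters named (intermediate sites, low and high clusters, sites with 5 to 9 reads) were chosen after their values were seen. Promoter sequences are from RefSeq (GRCm38.p6), matched by symbol for 28 of 36 genes. Values of 1 regulator are not reported here.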

Additional observations from a re-analysis of the deposited data

How the results depend on the processing

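No H2 site passed the threshold under any alternative run. No H2 gene did with 5 or 20 reads, a 2 kb limit, edgeR, or without any replicate. Fisher's exact test on reads summed per group takes no account of replicates and called 5 gene values (H2-Q2, H2-Q5, H2-Q4, H2-M3, and H2-T3, all lower in Space GS cells) and 4415 of 30526 in the whole table. With a replicate block there were 0 calls among sites and 0 among genes. The deviations of samples with equal numbers correlated at 0.00988 to 0.0732, so the numbers were not taken as pairs. Differences over 20 percentage points numbered 3 with 5 reads (0.476% of the H2 sites, 0.754% of all sites). They numbered 1 without Space replicate 1, Space replicate 2, or Ground replicate 2, 2 without Ground replicate 1 or Ground replicate 3, and 0 without Space replicate 3, at most 0.439% of the H2 sites beside 0.303% to 0.364% of all sites. Sites without overlap numbered 6 of 88 with 5 reads (6.82%, all sites 8.51%) and 0 of 28 with 20 reads (all sites 9.12%). They numbered 4, 6, and 8 without Space replicate 1, 2, or 3, and 5, 4, and 9 without Ground replicate 1, 2, or 3, of 49. These are 8.16% to 18.4%, compared with 18% to 19.5% of all tested sites, where fewer samples need to be apart.

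Space minus Ground differences of the class means moved by less than 1 SD when any replicate was left out, but their sign was not fixed. Over 1 kb, that of classical class I was −0.600 without Space replicate 1 and that of class II −0.0600 without Ground replicate 2. Within 1 kb, that of class II was −0.0957 without Space replicate 2, that of non-classical genes 0.565, 0.309, and 0.0743 without Space replicate 3, Ground replicate 1, and Ground replicate 3, and that of classical class I −0.0209 without Ground replicate 2. Under other settings 5 values moved by more than 1 SD. Within 1 kb, that of class II was 1.76 percentage points with 5 reads and 4.80 with equal weight per gene. Over 1 kb, that of class II was 0.888 with reads pooled over sites, and that of non-classical genes was −2.30 with 5 reads and 0.269 with equal weight per gene. Mean levels within 1 kb with 5 reads, 20 reads, and equal weight per gene were 5.32%, 1.97%, and 27.4% in class II and 6.19%, 1.89%, and 11.2% in non-classical genes. Over 1 kb, with 5 reads, 20 reads, and pooled reads, they were 55.8%, 73.6%, and 72.0% in classical class I, 44.0%, 30.5%, and 26.1% in class II, and 41.2%, 28.4%, and 29.3% in non-classical genes. With equal weight per gene they were 68.7% in class II and 63.7% in non-classical genes. Levels of classical class I genes within 1 kb moved by less than 1 SD. RRBS covers CpG-rich fragments, so CpG-poor H2 starts were mostly not measured, and 3 replicates per group at 10 to 97 reads cannot show small differences at single sites. The mean of B2m without Ground replicate 1 was computed after seeing the data.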
